A study of Rattus norvegicus with 4 samples.

Results

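The genes described here are 46 genes of the smooth muscle contractile apparatus and of the actin cytoskeleton, listed by symbol. They were chosen with earlier results of these data known. The paper also recalls earlier profiling with an apparent rise of smooth muscle genes, alpha-smooth muscle actin among them. An excess among the members is therefore not that of a list made blind. Of the 46 genes, 43 had at least 1 probe set annotated with that single symbol, out of 14217 such genes on the array. Each was represented by its brightest probe set over all arrays. A set of 34 was bright enough to be tested, against 9163 genes tested in all, and 9 were too dim. The other 3, Actb, Myl6 and Cfl1, are found here only on probe sets shared with other symbols and have no value.

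RT4D6 is a Schwannoma cell line of the rat, derived from a tumour of glial cells of the peripheral nerve, and it expresses Sox10, a transcription factor of the glial lineage. Cells of this single line were treated for 48 h either with a wild type siRNA specific to Sox10 or with a mutant siRNA as the control, and both groups share the line and the time. Each group has 2 arrays (Affymetrix rat expression arrays), and the study describes them as 2 independent pairs of cell samples. The earlier observation that led to the study was an apparent change of these cells towards smooth muscle after loss of Sox10, which is the question that the smooth muscle genes bear on.

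In smooth muscle, force comes from myosin filaments pulling on actin filaments, and it is switched on when myosin light chain kinase phosphorylates the regulatory light chain of myosin. Calponin, caldesmon, transgelin and tropomyosin lie along the actin filament, and alpha-actinin, filamin, vinculin, talin and zyxin family proteins tie the filaments to one another and to integrin adhesions at the membrane. Many of these genes are known targets of the serum response factor SRF, which binds a DNA element called the CArG box together with the coactivators myocardin or MRTF, and several of them are also made by fibroblasts, glia and other cells that contain no smooth muscle myosin.

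The siRNA target itself, Sox10, had signals of 163 and 335 on the wild type siRNA arrays against 2873 and 2890 on the mutant siRNA arrays (log2 fold change -3.54, adjusted p = 0.00130), as the labels name them. The values are MAS5 signals, the linear brightness of a probe set, and array medians lay between 101 and 110, with 25th percentiles of 26.2 to 31. Each signal was taken as its log2 minus the median log2 of its array, and probe sets at or above that median on at least 2 arrays were tested with limma. A log2 fold change is the wild type siRNA minus the mutant siRNA, and a gene was called at an adjusted p under 0.05. The median log2 fold change over all 9163 genes was 0.19, so each value is to be read against that. The number of arrays limits the precision. In a bulk culture, a change in the share of cells of a type and a change in RNA per cell cannot be told apart.

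Of the 34 tested members, 11 were higher with the wild type siRNA (32.4%, against 17.4% of all genes tested) and 3 were lower (8.82%, against 10.6%). The 20 others did not pass, with log2 fold changes from -0.88 to 1.37. The median over the tested members was 0.37, against 0.19 over all genes. The members that rose were Myl9, Lpp, Acta2, Tagln, Vcl, Actn1, Tpm4, Cald1, Myh9, Zyx and Ilk, and those that fell were Parva, Myh10 and Tagln2. For each of these 14, the signals of both groups did not overlap. The same held for Myh11, Smtn, Cnn2, Tes, Pdlim5 and Srf, which did not pass. With so few arrays a call nearly requires such a gap, so the gap adds no support. The share over all genes was not counted. Only 1 tested member, Myh11, passed the brightness filter through the wild type siRNA arrays alone, and none through the mutant siRNA arrays alone. When all genes were tested without that filter, 7 of the 43 measured members were higher (16.3%, against 9.09% of 14217 genes) and 2 were lower (4.65%, against 5.99%). The methods' t-test at an unadjusted p under 0.05 gave no such excess, with 5 of 34 members higher (14.7%, against 17.5% of all genes tested) and 1 lower (2.94%, against 7.25%). A fit with 1 array left out keeps a single array in a group, so its count of calls is not compared here. The median over the tested members was 0.22 without mutant siRNA replicate 1 and 0.48 without replicate 2 of that group. It was 0.53 when the wild type siRNA group lost its replicate 1 and 0.18 when it lost its replicate 2. Over all tested probe sets the medians of these fits were 0.1 to 0.14. Without the brightness filter the calls of Cald1, Ilk, Myh9, Zyx and Tagln2 were lost, and without the intensity trend of limma those of Acta2, Actn1, Cald1, Ilk, Myh9, Tpm4, Zyx, Myh10 and Tagln2.

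**Figure D1:**
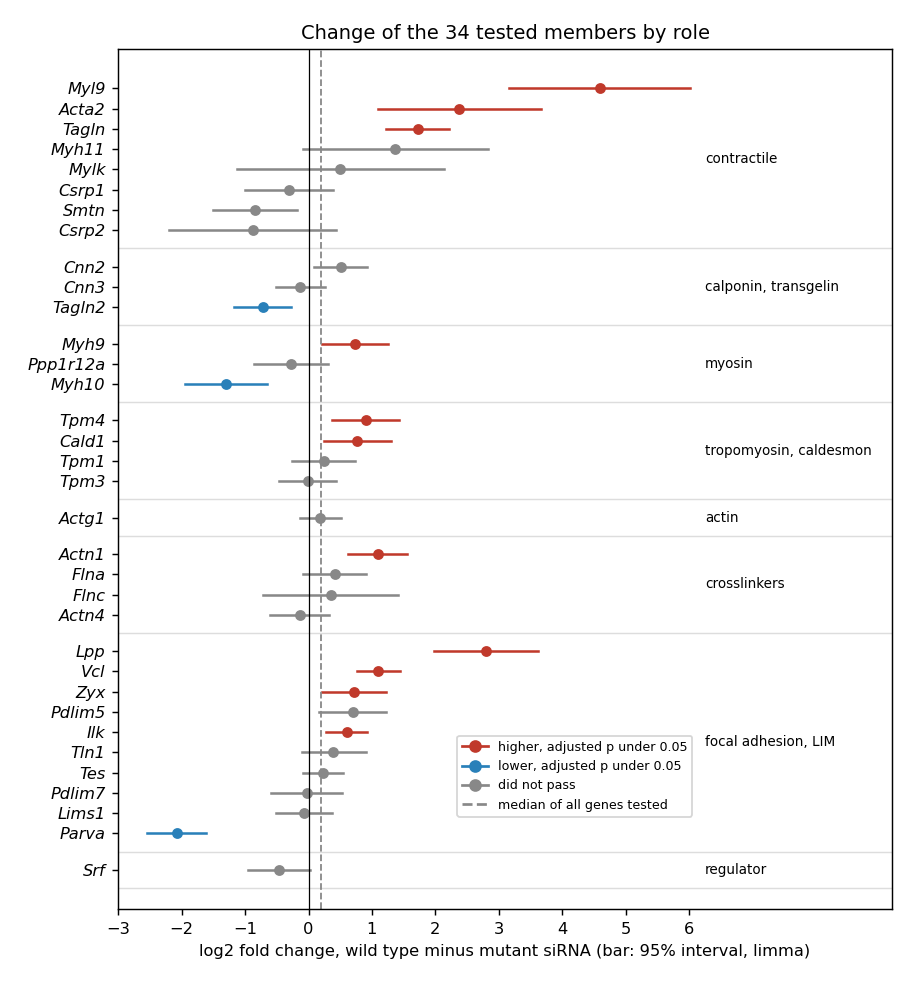
Log2 fold change, wild type minus mutant siRNA, of each of the 34 tested members, grouped by role, with its 95% interval from limma. The dashed line is the median of all genes tested (0.19); red points are the 11 members that were higher, blue points the 3 that were lower and grey points the 20 that did not pass.

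Among the 15 smooth muscle contractile members, 8 were tested, 3 were higher (Acta2, Tagln and Myl9) and none was lower. Here and in the groups below, counts stand beside 17.4% of all genes tested that were higher and 10.6% that were lower. A single called gene in a small group is no result about the group. Acta2, smooth muscle alpha-actin, had signals of 2069 and 5316 on the wild type siRNA arrays against 376 and 1214 on the mutant siRNA arrays. The lowest wild type siRNA array was above the highest mutant siRNA array, although on the log2 scale the replicates within each group differed by more than the gap between those 2 arrays. The fold was 5.19 (log2 fold change 2.37, standard error 0.56, adjusted p = 0.0182), and it was 2.49 and 2.25 on the log2 scale within the replicate 1 and the replicate 2 arrays. Without mutant siRNA replicate 1 the log2 fold change of Acta2 was 1.55 and no longer passed (adjusted p = 0.0808), and over the 4 fits that leave out 1 array it lay between 1.55 and 3.20.

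The Acta2 promoter is shown because Acta2 is the classical smooth muscle marker of the list and its upstream sequence holds CArG boxes. The sequence is the 250 bases before the gene start in RefSeq on the rat build GRCr8, chr1:241172504-241172753 on the minus strand, read 5′ to 3′ along the gene. The capitals mark a pair of boxes that begin 134 and 84 bases before the start, each with 1 of the 6 inner bases that is neither A nor T.
Acta2: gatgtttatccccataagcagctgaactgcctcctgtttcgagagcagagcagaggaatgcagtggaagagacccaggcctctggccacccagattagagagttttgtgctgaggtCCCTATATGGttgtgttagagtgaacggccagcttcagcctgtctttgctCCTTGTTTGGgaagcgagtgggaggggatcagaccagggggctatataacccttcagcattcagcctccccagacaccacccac

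Myl9, the regulatory light chain of smooth muscle and non-muscle myosin, showed the greatest rise of the tested members. Its signals were 8613 and 15682 with the wild type siRNA against 228 and 1133 with the mutant siRNA. Both mutant siRNA arrays lay above the array median, so that the gene was measured in both groups, and no value overlapped. The fold was 24.1 (log2 fold change 4.59, standard error 0.62, adjusted p = 0.00287), with 5.27 and 3.92 within the pairs of arrays. Tagln, also called SM22 alpha, binds actin and is an early marker of smooth muscle differentiation. It had signals of 21242 and 22657 against 5482 and 9015, and was well above background in both groups. Its fold was 3.30 (log2 fold change 1.72, standard error 0.22, adjusted p = 0.00247). Myl9 and Tagln passed in all 4 fits with 1 array left out.

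None of the other 5 tested contractile members passed. Myh11, the smooth muscle myosin heavy chain and the most specific marker of the mature cell, had signals of 138 and 147 with the wild type siRNA against 95.6 and 35.2 with the mutant siRNA. The mutant siRNA replicate 2 value lay near the 25th percentile of its array and the other 3 nearer to the medians, the groups did not overlap, and the difference was 0.56 in the replicate 1 arrays and 2.19 in the replicate 2 arrays. Myh11 did not pass (log2 fold change 1.37, standard error 0.64, adjusted p = 0.137). Mylk, the kinase that phosphorylates the light chain, had 91.9 and 132 against 40.7 and 166, and the highest and the lowest value were both on mutant siRNA arrays (log2 fold change 0.50, adjusted p = 0.631). Smtn, the smooth muscle actin-binding protein smoothelin, had 279.8 and 401 against 522 and 771. The wild type siRNA arrays were both the lower ones for Smtn, but the gene did not pass (log2 fold change -0.84, standard error 0.29, adjusted p = 0.0633), and it did so when the replicate number was a block (adjusted p = 0.0127).

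Csrp1 and Csrp2 are LIM proteins that bind alpha-actinin and zyxin in smooth muscle. Csrp1 had signals of 3447 and 6972 with the wild type siRNA against 6075 and 6814 with the mutant siRNA, and the groups overlapped (log2 fold change -0.31, adjusted p = 0.467). Csrp2 had 1573 and 5563 against 3624 and 9103. For Csrp2 the replicate 2 array was the brighter in both groups, and within each pair the wild type siRNA array was the dimmer, with differences of -1.17 and -0.59. It did not pass (log2 fold change -0.88, standard error 0.58, adjusted p = 0.281), but did with the replicate block (adjusted p = 0.00104).

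Another 7 contractile members had no array at or above the median and were not tested. Actg2, the enteric smooth muscle actin, had signals of 84.1 and 65.1 with the wild type siRNA against 35.5 and 88.9 with the mutant siRNA. Cnn1, the calponin of differentiated smooth muscle, had 83.9 and 54.8 against 31.4 and 61.3. Des, the muscle intermediate filament desmin, had 30.6 and 53.3 against 62.8 and 96.6. Of these, only Des had groups that did not overlap, with both wild type siRNA arrays below the mutant siRNA arrays. Lmod1, the actin nucleator leiomodin, had 47.2 and 32.5 against 40.7 and 52.3. Synpo2, an actin-bundling protein of smooth muscle, had 78.4 and 52.2 against 40 and 90.1. Pdlim3, a LIM protein of muscle that binds alpha-actinin, had 97.7 and 50.9 against 80.1 and 41.2. The groups overlapped for all 3 genes. Ppp1r14a, the inhibitor of myosin phosphatase also called CPI-17, had 4.1 and 15.6 against 4.1 and 16.6, below the 25th percentile of every array.

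**Figure D2:**
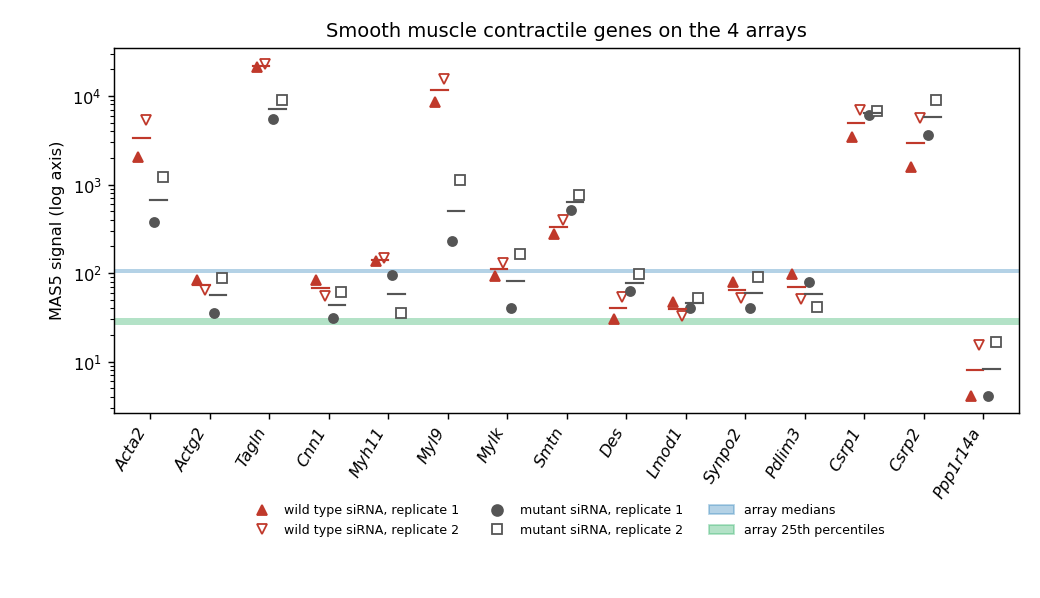
Signals (MAS5, log axis) of the 15 smooth muscle contractile members on each of the 4 arrays, with horizontal lines at the geometric mean of each group, the blue band at the array medians (101 to 110) and the green band at the 25th percentiles (26.2 to 31). Acta2, Tagln and Myl9 lie higher with the wild type siRNA, while Actg2, Cnn1, Des, Lmod1, Synpo2, Pdlim3 and Ppp1r14a lie below the array medians on all 4 arrays.

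The transgelin and calponin forms that many cells make gave 1 lower gene of 3 and none higher. Tagln2, a transgelin found outside muscle, had signals of 5756 and 7499.8 with the wild type siRNA against 9997 and 13135 with the mutant siRNA. Both wild type siRNA arrays were below both mutant siRNA arrays, the reverse of Tagln. Its fold was 1.65 lower (log2 fold change -0.72, standard error 0.20, adjusted p = 0.0289), and the call was lost without wild type siRNA replicate 1 or without mutant siRNA replicate 2. Cnn2 had a log2 fold change of 0.51 (adjusted p = 0.0714, and 0.0203 with the replicate block), and Cnn3 one of -0.13 (adjusted p = 0.596).

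The non-muscle myosin heavy chains moved in opposite directions. Myh9, the heavy chain of non-muscle myosin IIA, had signals of 7751 and 11303 with the wild type siRNA against 5069 and 6885 with the mutant siRNA. Its groups did not overlap, and the fold was 1.67 (log2 fold change 0.74, standard error 0.23, adjusted p = 0.0427). This call was lost in 3 of the 4 fits with 1 array left out, and with the signals as deposited or quantile normalized. Myh10, the heavy chain of non-muscle myosin IIB, had signals of 646 and 1146 against 2120 and 2367. It was 2.46-fold lower (log2 fold change -1.30, standard error 0.28, adjusted p = 0.0136), and did not pass without either mutant siRNA array. Ppp1r12a, the targeting subunit of myosin phosphatase, had a log2 fold change of -0.28 (adjusted p = 0.433) on its brightest probe set. Its 3 other tested probe sets were all positive in sign, and 1 of them, with signals of 747 and 850 against 535 and 436, was higher (log2 fold change 0.80, adjusted p = 0.0349), while the others had 0.24 and 0.38 (adjusted p = 0.432 and 0.213).

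Of the 4 tropomyosins and caldesmon, Tpm4 and Cald1 were higher. Tpm4, a tropomyosin of the non-muscle cytoskeleton, had signals of 13855 and 17667 with the wild type siRNA against 6923 and 11329 with the mutant siRNA (1.87-fold, log2 fold change 0.90, standard error 0.23, adjusted p = 0.0253). Cald1, caldesmon, which inhibits the myosin ATPase on actin, had 15150 and 21703 against 9205 and 13642 (1.71-fold, log2 fold change 0.77, standard error 0.23, adjusted p = 0.0395). In both genes the lowest wild type siRNA array was above the highest mutant siRNA array, and both calls were lost without mutant siRNA replicate 1 or without wild type siRNA replicate 2. The Cald1 call was lost too with the mean of its probe sets (adjusted p = 0.0621), without the brightness filter (0.0829) and without the intensity trend (0.138). A second probe set of Tpm4 also passed (log2 fold change 1.11, adjusted p = 0.0317), and a second one of Cald1 had nearly the same log2 fold change of 0.79 but did not (adjusted p = 0.118).

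Tpm1 and Tpm3 were bright in both groups and did not pass. Tpm1 had a log2 fold change of 0.24 (95% interval -0.26 to 0.74), and its 6 other tested probe sets ranged from -0.98 to 0.30. Tpm3 had -0.01 (95% interval -0.46 to 0.43), and its 9 others ranged from -0.51 to 0.44. None of these 15 other probe sets passed. The probe sets of a gene that makes many transcripts need not read the same isoforms, and which isoforms they read was not tested. Tpm2, the tropomyosin of smooth and skeletal muscle, was too dim, with signals of 18.1 and 20.6 against 34.2 and 51.2.

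Of the cytoplasmic actins and cofilin, Actg1 was measured by a probe set of its own. Actg1, cytoplasmic gamma-actin, had signals of 43019 and 34521 with the wild type siRNA against 38327 and 33546 with the mutant siRNA. Both replicate 1 arrays were brighter than both replicate 2 arrays. Within each pair the wild type siRNA array was the brighter, by 0.20 and 0.17 on the log2 scale. The log2 fold change was 0.18 (95% interval -0.14 to 0.51, adjusted p = 0.361, and 0.0591 with the replicate block). This interval lies below the whole 95% interval of Acta2 (1.09 to 3.66), although the difference between these genes was not tested. The array's own 3′ control probe set for beta-actin, which is not among the tested probe sets, had signals of 37134 and 37045 against 34203 and 32763. The ratio of its 3′ to its 5′ signal, a sign of RNA integrity, was 1.54 and 1.39 with the wild type siRNA against 1.87 and 1.52 with the mutant siRNA. The highest ratio was on mutant siRNA replicate 1, and the lowest was on replicate 2 of the wild type siRNA. The median of the tested members was 0.22 with the first of these arrays left out and 0.18 with the second. It was 0.53 without wild type siRNA replicate 1 and 0.48 with the remaining array left out, against 0.37 with all 4 arrays. The part of RNA integrity in the members' changes was not tested.

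Actin crosslinkers gave 1 higher gene of 4. Actn1, a non-muscle alpha-actinin that bundles stress fibres and binds integrin adhesions, had signals of 8566 and 9799.6 with the wild type siRNA against 3731 and 5547 with the mutant siRNA. No value overlapped, and the fold was 2.13 (log2 fold change 1.09, standard error 0.21, adjusted p = 0.00834). Another Actn1 probe set was higher as well, at 1.04 (adjusted p = 0.0390). Actn4, the other non-muscle alpha-actinin, had a log2 fold change of -0.14 (adjusted p = 0.626). Flna, filamin A, had 0.42 (adjusted p = 0.180, and 0.0136 with the replicate block), and Flnc, the filamin of muscle, had 0.35 (adjusted p = 0.599) at signals of 104 to 219.5.

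Among the 10 focal adhesion and LIM proteins, 4 were higher and 1 was lower. Vcl, vinculin, which links talin to actin at adhesions, had signals of 9834 and 10484 with the wild type siRNA against 5102 and 4914 with the mutant siRNA. The replicates of each group differed by little beside the gap between the groups, and the fold was 2.14 (log2 fold change 1.10, standard error 0.15, adjusted p = 0.00295). Its other 2 tested probe sets passed as well, at 1.27 and 1.38. Lpp, a LIM protein of the zyxin family enriched in smooth muscle, had 667 and 736 against 74.7 and 151. One of the mutant siRNA arrays lay below the array median for Lpp, and the fold was 6.96 (log2 fold change 2.80, standard error 0.36, adjusted p = 0.00252). Zyx, zyxin, which brings actin assembly factors to adhesions, had 4029.7 and 5321 against 2505 and 3511 (1.65-fold, log2 fold change 0.72, standard error 0.22, adjusted p = 0.0440). Zyx was lost in 3 of the 4 fits with 1 array left out, and with the signals as deposited or quantile normalized. Vcl, Lpp and Actn1 passed in all 4 of those fits.

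Ilk, Lims1 and Parva encode the 3 partners of one adhesion complex, the integrin-linked kinase, the LIM protein PINCH and alpha-parvin, the actin-binding subunit. Ilk had signals of 11198 and 9992 with the wild type siRNA against 7473 and 7253 with the mutant siRNA (1.52-fold, log2 fold change 0.60, standard error 0.14, adjusted p = 0.0188). Parva had 494 and 601 against 2403 and 2452. The Parva arrays of each group lay close together and the groups were far apart, in the direction opposite to Ilk, at 4.22-fold lower (log2 fold change -2.08, standard error 0.21, adjusted p = 0.00145). Another Parva probe set was lower too (log2 fold change -0.76, adjusted p = 0.0398), by a smaller amount. Lims1 had -0.07 (95% interval -0.51 to 0.37) on its brightest probe set, and a dimmer one, with 397 and 203 against 127 and 84.6, was higher (log2 fold change 1.53, adjusted p = 0.0319). Parva passed in all 4 fits with 1 array left out, and Ilk in 1 of them, with log2 fold changes from 0.55 to 0.66 and adjusted p up to 0.0954.

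The remaining adhesion members did not pass. Pdlim5, a PDZ and LIM protein that binds alpha-actinin, had a log2 fold change of 0.70 (adjusted p = 0.0600, and 0.0225 with the replicate block). Tln1, talin, which activates integrins, had 0.39 (adjusted p = 0.211), and the LIM protein Tes had 0.23 (adjusted p = 0.243) at closely similar signals of 10896 and 10904 against 9492 and 10173. Pdlim7, a related PDZ and LIM protein, had -0.03 (adjusted p = 0.944).

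**Figure D3:**
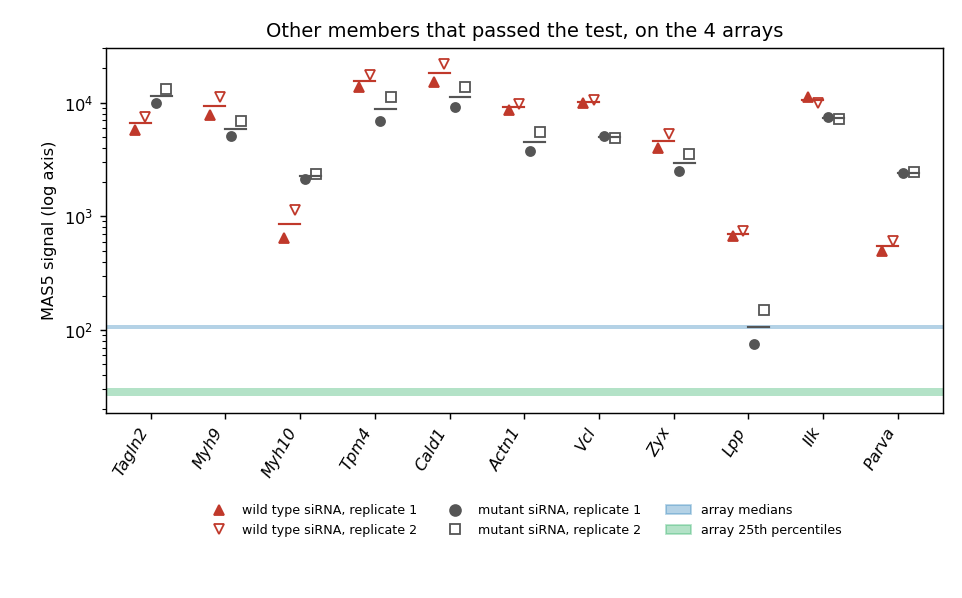
Signals (MAS5, log axis) of the 11 members outside the contractile role that passed the test, on each of the 4 arrays, with horizontal lines at the geometric mean of each group and bands at the array medians and 25th percentiles. Signals are higher with the wild type siRNA for 8 genes and lower for Tagln2, Myh10 and Parva, and no gene has overlapping groups.

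Of the regulators, Srf did not pass and Myocd was not tested. Srf, the factor that binds CArG boxes, had signals of 543 and 449 with the wild type siRNA against 692 and 749.5 with the mutant siRNA, both wild type siRNA arrays being the dimmer (log2 fold change -0.46, 95% interval -0.96 to 0.03, adjusted p = 0.14). Myocd, the smooth and cardiac muscle coactivator myocardin, was too dim, with 36.2 and 14.3 against 38.0 and 55.0. In a list of 36 measured genes of the SRF pathway and of actin dynamics, 35 were tested, 11 were higher (31.4%, against 17.4% of all genes tested) and 3 were lower (8.57%, against 10.6%). The greatest rises were those of Limk2, a kinase that inactivates cofilin (log2 fold change 1.45, adjusted p = 0.00795), Pdlim2, a PDZ and LIM protein (1.19, adjusted p = 0.0346) and Enah, an actin elongation factor that binds zyxin (1.15, adjusted p = 0.00541). The 3 lower genes were Elk4, an ETS partner of SRF (-1.56, adjusted p = 0.00343), Pxn, the adhesion adaptor paxillin (-1.48, adjusted p = 0.00340) and Capg, an actin capping protein (-1.15, adjusted p = 0.00394). Mrtfa, the MRTF coactivator of SRF, was named after its values were seen. It had signals of 576 and 724 against 442 and 278 and was higher (log2 fold change 0.96, standard error 0.29, adjusted p = 0.0430).

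CArG boxes were searched on both strands of the promoter windows that RefSeq gives on GRCr8, from 250 bases before to 50 bases after each gene start, and 36 members have such a window. The other 10, Tagln, Myh11, Myl9, Actn4, Lmod1, Pdlim3, Myocd, Lpp, Parva and Actb, were not searched, and 4 of them are called members. The box in its strict form, a pair of C, then 6 bases that are each A or T, then a pair of G, was in windows of 3 of these members (8.33%), Srf, Actg1 and Cnn2, against 1.77% of all 27457 genes with a window. A relaxed form that allows 1 other base among the 6, chosen after the windows were seen, was in 6 members (16.7%, against 10.1% of all genes), adding Acta2, Tpm3 and Zyx. The Sox core ACAAT or its complement ATTGT was in 9 members (25%, against 34.9%). These are matches of letters and not binding sites. The stretches around the strict boxes are printed to show the form of the element, with the boxes in capitals, 5′ to 3′ along the gene. Srf lies on the plus strand at chr9:21923955-21924064, Actg1 on the minus strand at chr10:106120992-106121081 and Cnn2 on the minus strand at chr7:10370334-10370423.
Srf: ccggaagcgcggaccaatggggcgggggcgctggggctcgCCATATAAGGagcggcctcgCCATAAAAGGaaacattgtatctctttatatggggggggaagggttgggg
Actg1: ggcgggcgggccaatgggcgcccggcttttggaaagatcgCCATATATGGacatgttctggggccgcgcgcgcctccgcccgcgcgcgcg
Cnn2: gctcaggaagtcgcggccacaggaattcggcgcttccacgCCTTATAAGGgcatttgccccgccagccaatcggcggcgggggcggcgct
The boxes of Srf begin 81 and 61 bases before the gene start, that of Actg1 90 bases before it and that of Cnn2 71 bases before it. The log2 fold changes of these 3 genes were -0.46, 0.18 and 0.51, and none passed. The 3 genes with relaxed boxes alone had 2.37 (Acta2), 0.72 (Zyx) and -0.01 (Tpm3). Strict boxes were looked for in 10 of the 14 called members and found in none of them. With 1.77% of all genes holding one, a search of 10 genes cannot show whether called members lack them. Relaxed boxes were found in Acta2 and Zyx.

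Probe sets other than the brightest gave a further reading of 14 members, with 31 of them tested. Of these, 16 had the sign of the brightest one and 28 had its call. For the 5 called members with such probe sets, Vcl, Actn1, Tpm4, Cald1 and Parva, all 6 had the same sign and 5 the same call. Signs differed for Ppp1r12a, Tpm1, Tpm3 and Lims1, and in 1 probe set each for Actg1 (-0.27, adjusted p = 0.588), Pdlim7 (0.50, adjusted p = 0.121) and Srf (0.10, adjusted p = 0.893). The Srf probe set had signals of 95.6 to 119.8, close to the array medians.

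The replicate pairs were compared for all 43 measured members. In 22 the wild type siRNA array was the brighter in both pairs, in 11 it was the dimmer in both, and in 10 the pairs differed in sign. Mylk and Csrp1 were among those that differed. Of the 14 called members, every one had the same sign in both pairs. That is nearly fixed by their groups not overlapping and is no separate support. The shares of these patterns over all genes were not counted.

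**Figure D4:**
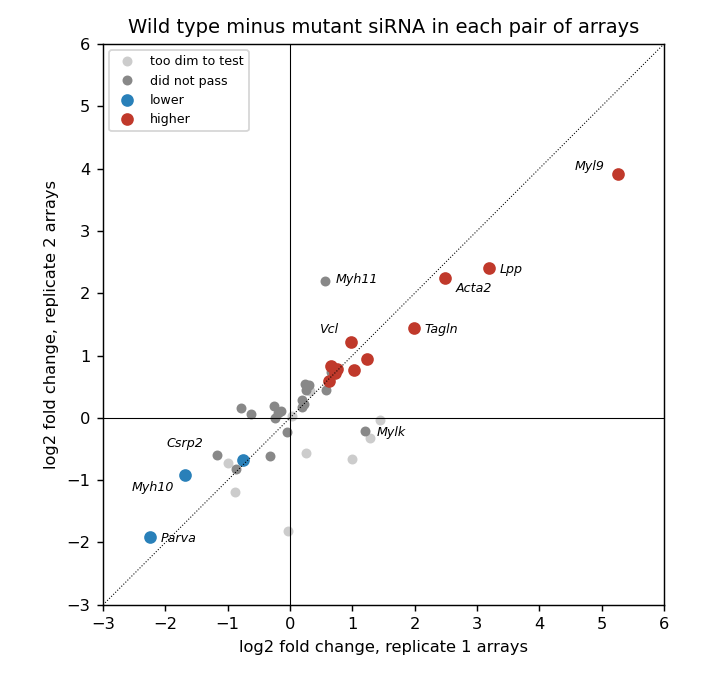
Log2 fold change, wild type minus mutant siRNA, in the replicate 1 arrays (horizontal) against the replicate 2 arrays (vertical) for each of the 43 measured members, with the dotted line at equal values. Myl9 lies at 5.27 and 3.92, Parva at -2.25 and -1.91, and the red and blue points, the 14 called members, all lie in the quadrants where both pairs have the same sign. For the called members this is nearly fixed by groups that do not overlap.

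The members also shared a difference between replicates that the siRNA does not define. Among the 34 tested members, 30 were brighter on replicate 2 than on replicate 1 of the wild type siRNA arrays, after centring, and 28 were so on the mutant siRNA arrays. Over all tested probe sets the shares were 54.3% and 45.5%. The median difference between the replicates of the members was 0.45 on the log2 scale with the wild type siRNA and 0.33 with the mutant siRNA, against 0.04 and -0.04 over all tested probe sets. Acta2, Myl9 and Csrp2 were among the members with the widest gaps between replicates in both groups. These members are not independent of one another, and the source of the difference was not tested.

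**Figure D5:**
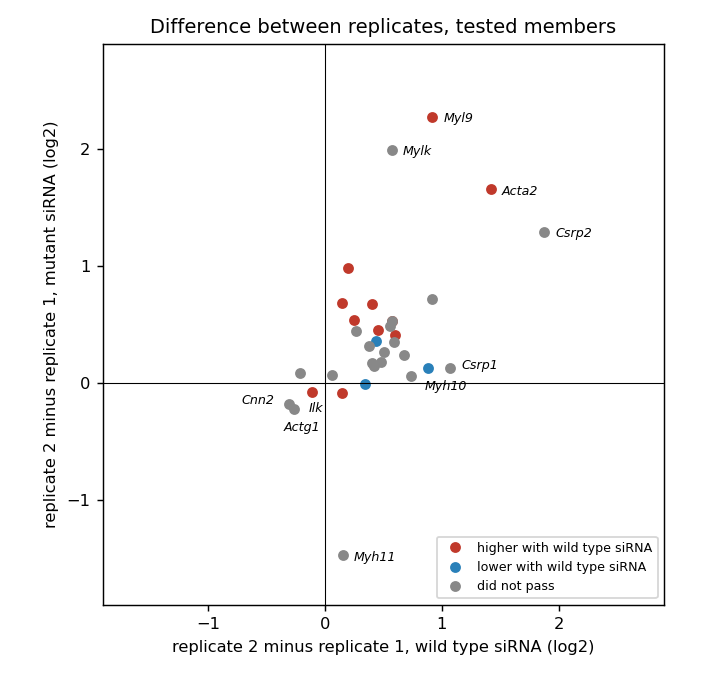
Difference in centred log2 signal between replicate 2 and replicate 1 of the wild type siRNA arrays (horizontal) and of the mutant siRNA arrays (vertical) for each of the 34 tested members. Most points lie in the upper right quadrant, and the median of the members is 0.45 on the horizontal and 0.33 on the vertical axis.

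A further list of 25 measured smooth muscle genes that are not members had 10 tested, 4 higher (40%, against 17.4% of all genes tested) and none lower (against 10.6%). These were Nexn, an actin filament binding protein of muscle (log2 fold change 2.02, adjusted p = 0.0482), Fhl2, a LIM protein that binds SRF (1.87, adjusted p = 0.0166), Rbpms2, an RNA-binding protein of smooth muscle precursors (1.12, adjusted p = 0.0133), and Sgcb, a sarcoglycan of the muscle membrane (1.07, adjusted p = 0.0320). Nexn, Fhl2 and Rbpms2 were dimmest on mutant siRNA replicate 1, at 33.3, 166 and 225, as Acta2 and Myl9 were. Sgcb was dimmest on mutant siRNA replicate 2, at 145.5. Itga8 reached the brightness filter through the wild type siRNA arrays alone and did not pass (1.34, adjusted p = 0.0561). Among those too dim to test, Irag1, Kcnmb1, Ldb3, Fhl1 and Casq2 had both wild type siRNA arrays below both mutant siRNA arrays. Aoc3 had them above, and for the others the groups overlapped. The share of such gaps over all genes was not counted.

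Markers of other cells were read on the same arrays, beside 17.4% of all genes tested that were higher and 10.6% that were lower. Of 26 measured markers of cardiac and skeletal muscle, 4 were tested, with 1 higher and 1 lower, and their summed signal was 7844 and 6575 with the wild type siRNA against 5615 and 4855 with the mutant siRNA. The higher one was Myh1, a skeletal myosin heavy chain (log2 fold change 1.32, adjusted p = 0.00347), and the lower one Mef2c, a transcription factor of muscle and other tissues (-1.11, adjusted p = 0.00882). The Myh1 probe set alone gave 72.6% and 69.5% of the sum on the wild type siRNA arrays, against 42.5% and 40.3% on the mutant siRNA arrays. Without it the sums were 2152 and 2004 against 3229 and 2899.7, so the direction turned. Of these sums Mef2c alone gave 906 and 1035 against 2501 and 1959, so the turn rests on that gene. The name of the Myh1 probe set rests on the platform annotation, which was not tested here. Apart from Myh1 and Mef2c the markers of this list had signals of 1.6 to 132.8. Myod1, the skeletal muscle regulator, had signals of 1.7 to 7.3 on all arrays. Of 14 markers of fibroblasts and pericytes, 5 were tested, none was higher and 1, Mcam, was lower (-1.25, adjusted p = 0.0142), and the summed signal was 28995 and 31927 against 33194 and 31509. Postn, which codes for the matrix protein periostin, gave 79.6% to 87.1% of that sum, and without it the sums were 3750.3 and 6127 against 6249.7 and 6436. All 10 measured markers of Schwann cells and glia were tested, and 8 were lower and none higher. Of these 10, Erbb3, which was lower, and Pou3f1, which did not pass, reached the brightness filter through the mutant siRNA arrays alone. The markers had summed signals of 4383 and 3913 against 28026 and 20558. The part of any of these in the members' changes was not tested.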

How the data were processed

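The authors hybridised biotin-labelled RNA of RT4D6 cells to 4 one-colour arrays and deposited intensity values, a linear MAS5 signal for each probe set, scaled to a 2% trimmed mean of 500. The version of MAS5 is not given in the sources used here, and the median normalization, detection calls and filters of the study are not in the values. Of 31099 probe sets, 57 controls were left out. The platform annotation gives a single symbol for 20826 of the rest, several for 436 and none for 9780, and probe sets with several were not used for any gene.

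From each log2 signal the median of its array was subtracted. A linear model per probe set was fitted in limma 3.58.1 (R 4.3.3, lmFit, then eBayes with trend by intensity) to the 16125 probe sets that reached the array median on 2 or more arrays, with Benjamini-Hochberg adjustment over all of them. For gene counts 1 probe set per gene was used, the brightest by mean log2 signal. Scripts were tested on simulated data. Python 3.11.15 with pandas 2.3.3 made the tables and matplotlib 3.10.9 the plots. The members and gene lists were chosen with earlier results of these data known. All members are named. Those called and all contractile members are given on each array, other probe sets where their call or sign differed from that of the brightest one or where they belong to a called member, and of the other smooth muscle list and the SRF and actin list the 3 lowest and 3 highest called genes. The series describes paired sets of cells, so an alternative took the replicate number as a replicate block. Arrays with the same number deviated together from their groups with a correlation of 0.14. The p-values measure the spread between these few cultures only.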

Additional observations from a re-analysis of the deposited data

How the results depend on the processing

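Called members kept their direction in all alternatives run. As deposited or quantile normalized, 9 members were higher (26.5%, against 14.2% and 14.7% of all genes). Lower were 4 and 3 (11.8% and 8.82%, against 12.4% and 11.9%). A floor or a pseudocount at the 25th percentile, or a filter on the mean, left 11 and 3. Of all genes these settings called 17.7% to 18.1% higher and 10.7% to 11% lower. Without a filter 7 were higher and 2 lower (16.3% and 4.65%, against 9.09% and 5.99%), with a median of 0.24. Without the intensity trend 4 were higher and 1 lower (11.8% and 2.94%, against 7.64% and 5.76%). The methods' t-test gave 5 and 1 at an unadjusted p under 0.05 (14.7% and 2.94%, against 17.5% and 7.25% of all genes) and 0 and 0 after adjustment, where 2 of all 9163 genes passed. The replicate block gave 14 higher and 5 lower, including all 11 and 3 (41.2% and 14.7%, against 24.5% and 14% of all genes). Leaving out 1 array gave 5 to 12 higher, 1 to 6 lower and a median of 0.18 to 0.53, where the group with 1 array left borrows its spread from the other. With the mean of a gene's probe sets 12 were higher and 3 lower (35.3% and 8.82%, against 17.8% and 10.9% of all genes). Of 508 member values under alternatives, 412 kept direction and call, 60 lost and 14 gained the call, and 22 changed sign, none of them of a called member. With 1 array left out, log2 fold changes ranged from -0.85 to 0.22 for Csrp1, -1.82 to 0.06 for Csrp2, -0.33 to 0.07 for Cnn3, -0.65 to 0.09 for Ppp1r12a, -0.27 to 0.24 for Tpm3, -0.27 to 0.14 for Lims1, -0.37 to 0.31 for Pdlim7, -0.50 to 1.5 for Mylk, -0.04 to 0.52 for Tpm1, -0.11 to 0.81 for Flnc and -0.36 to 0.08 for Actn4. With the mean of probe sets they were 0.29 for Ppp1r12a, -0.02 for Tpm1, 0.03 for Tpm3, -0.04 for Actg1, 0.73 for Lims1 and 0.24 for Pdlim7. The causes were not tested. Signals near the 25th percentile limit what can be said of the 9 dim members.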
